A study of Mus musculus with 6 samples.

Results

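Lhfpl3, Lhfpl4, Cpeb1, Cpeb2, Cpeb3 and Cpeb4 were taken as the rows of the gene table that carry these symbols, 6 of 32285 genes. Single nuclei were profiled from flash-frozen forebrains, 3 of them WT and 3 Npc1-/-, taken from untreated mice at postnatal day 16. Npc1-/- mice lack the cholesterol transporter NPC1 and are a model of Niemann–Pick disease type C. The study examined histone marks at the promoters of Lhfpl4 and Cpeb1 in oligodendrocyte lineage cells of these mice. It also measured RNA in purified cells of this lineage, by RNA-seq and by qRT-PCR with probes that included both genes. The deposited matrix joins 6 libraries, told apart by the number at the end of each barcode, and the sources used here do not tie a number to a mouse. WT and Npc1-/- were therefore not compared, and values with the libraries joined mix both genotypes.

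Lhfpl3 and Lhfpl4 encode small membrane proteins with several membrane-spanning segments, from the family of the lipoma HMGIC fusion partner. LHFPL4 binds GABA-A receptors and links them to neuroligin 2 at inhibitory synapses, whereas LHFPL3 is less well studied and its transcript is known from oligodendrocyte progenitor cells (OPCs). The Cpeb genes encode cytoplasmic polyadenylation element binding proteins, which bind short U-rich elements at the end of mRNAs and control the length of the poly(A) tail and translation. CPEB1 is the founding member, CPEB2, CPEB3 and CPEB4 form a closely related group, and all are studied in neurons for the local translation of synaptic mRNAs.

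The stretches just before the annotated starts of Lhfpl3, Lhfpl4 and Cpeb1 are shown because the study worked on the last pair of promoters and because Lhfpl3 carried the widest differences below. Each is the 250 bases before the RefSeq start on GRCm38.p6, read 5′ to 3′ on the gene's strand, and capitals mark CG dinucleotides, the letters in which DNA methylation is usually found. The windows are chr5:22745804-22746053 (plus strand), chr6:113195385-113195634 (minus strand) and chr7:81454759-81455008 (minus strand).
Lhfpl3: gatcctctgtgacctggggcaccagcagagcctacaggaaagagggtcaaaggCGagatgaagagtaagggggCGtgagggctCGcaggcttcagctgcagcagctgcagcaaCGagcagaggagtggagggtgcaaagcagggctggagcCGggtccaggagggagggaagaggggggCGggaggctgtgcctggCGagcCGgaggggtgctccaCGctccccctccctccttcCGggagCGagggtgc
Lhfpl4: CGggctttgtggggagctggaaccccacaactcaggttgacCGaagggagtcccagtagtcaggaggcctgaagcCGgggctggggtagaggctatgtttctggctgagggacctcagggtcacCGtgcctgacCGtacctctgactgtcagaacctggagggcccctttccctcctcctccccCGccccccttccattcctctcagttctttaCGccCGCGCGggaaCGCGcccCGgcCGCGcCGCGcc
Cpeb1: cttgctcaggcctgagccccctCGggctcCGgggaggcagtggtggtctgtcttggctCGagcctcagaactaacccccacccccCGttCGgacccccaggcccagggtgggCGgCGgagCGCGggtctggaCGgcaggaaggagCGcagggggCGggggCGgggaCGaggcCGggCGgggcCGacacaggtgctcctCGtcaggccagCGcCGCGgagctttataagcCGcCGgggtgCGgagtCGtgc
No window overlapped a GENCODE exon of its gene, but that of Cpeb1 lay within the longer GENCODE gene. They held 11, 17 and 25 CG dinucleotides, more than 64.4%, 76.5% and 89.3% of the 32851 windows of the same length in the RefSeq table. A CG was present in 92.1% of those windows, and the median window held 6. Cpeb4 and Cpeb3 also had entries in the table, 5 of the 6 genes in all.

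The genes lie on chromosomes 5 (Lhfpl3, ENSMUSG00000106379, 22746059 to 23275597, plus strand, and Cpeb2, ENSMUSG00000039782, 43233170 to 43289724, plus strand), 6 (Lhfpl4, ENSMUSG00000042873, 113168090 to 113195384, minus strand) and 7 (Cpeb1, ENSMUSG00000025586, 81347026 to 81455465, minus strand). Cpeb3 (ENSMUSG00000039652, 37021291 to 37208601, minus strand) lies on chromosome 19 and Cpeb4 (ENSMUSG00000020300, 31872211 to 31935634, plus strand) on chromosome 11, all in GRCm38 with GENCODE annotation. Other counted genes overlap 3 of them. Lhfpl3 shares 61.8 kb with 6030443J06Rik on its own strand, 22.9 kb with the antisense gene Gm42948 and 0.849 kb with A930003O13Rik on the opposite strand. Cpeb2 overlaps the antisense Gm7854. Cpeb3 overlaps the antisense A330032B11Rik and, over 1.06 kb, the protein-coding gene March5 on the opposite strand. No source used here says whether counting used strand, so reads of these genes and their partners may not be fully separated.

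The libraries held 8217 to 16118 barcodes and 51343653 to 107583300 unique molecular identifiers (UMIs, each standing for 1 captured transcript), and 631 barcode sequences occurred in more than 1 library. Of 75867 nuclei kept, clustering without the 6 genes gave 36 clusters, and 27 of them were named in 16 classes from marker lists. The other 9, with 23.7% of nuclei, stayed unnamed. A class name below means nuclei like that type by these markers, and the limits for naming were chosen with the clusters in view. The neuroblast class is 1 cluster that scored 2.58 on neuroblast and 2.56 on interneuron markers (the mean log2 fold of the list over the lower quartile of clusters), with no neuroblast marker among its 10 leading genes. It kept its name because these types were treated as related. Levels are in CPM, a gene's share of all UMIs of its class on the usual scale for sequencing counts, with 95% exact Poisson intervals. The intervals cover counting error only and not differences between mice.

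The oligodendrocyte names were checked against their markers. Pdgfra, the growth factor receptor of OPCs, stood at 396 CPM in the OPC class, 16.6 CPM among immature and 21.6 CPM among mature oligodendrocytes. Enpp6, a marker of newly formed oligodendrocytes, stood at 8.61, 558 and 127 CPM, and Mog, a myelin protein, at 15.0, 46.8 and 826 CPM. Tnr and Sox6, both on the OPC list, were higher in the immature class than in OPCs (5910 against 2101 CPM and 1787 against 1300 CPM). Rras2 and Ctps, both on the immature list, were higher in the mature than in the immature class (229 against 96.5 CPM and 134.5 against 33.4 CPM). OPC-like nuclei came from clusters 6 and 30. Cluster 30 was deep, with a median of 11308 UMIs per nucleus, and 59.1% of its nuclei were among the 10% with the highest doublet scores of their library. Among mature nuclei that share was 24.3%.

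Lhfpl3 was highest in OPC-like nuclei. It was counted at 4152 CPM (4123 to 4182) in 3938 OPC-like nuclei, with 3396 in the lowest library, a median of 4215 and 4756 in the highest. Dividing nuclei followed at 2008 CPM (1577 to 2700 over the libraries), immature oligodendrocytes at 1186 CPM (977 to 1555) and thalamic neurons at 912 CPM (763 to 990). The lowest of the 16 classes was the telencephalic excitatory neuron, at 188 CPM (166 to 214), and every OPC-like library was above every library of each other class. The lowest dividing library was above the highest immature library, and from microglia at 488 CPM down to pericytes at 228 CPM neighbours in the order overlapped over the libraries.

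**Figure D1:**
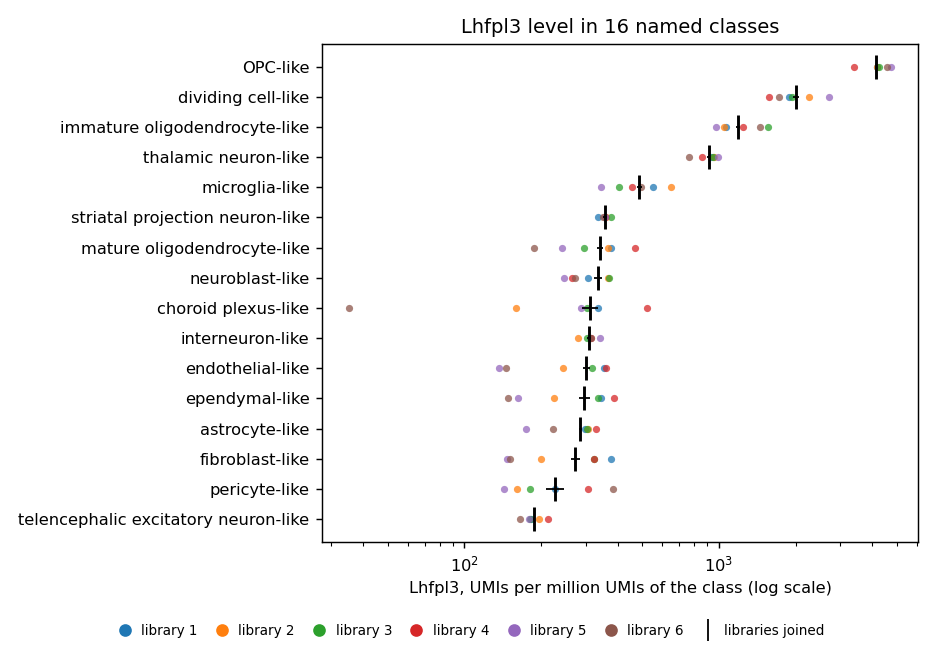
Lhfpl3 CPM (horizontal, log scale) in 16 named classes of nuclei. Points are the 6 libraries, the black mark is the level with libraries joined and its bar the 95% Poisson interval. OPC-like nuclei sit at 3396 to 4756 CPM and telencephalic excitatory neurons at 166 to 214 CPM.

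Within the OPC-like class, cluster 6 held 5442 CPM (5400 to 5484) and the deep cluster 30 held 1838 CPM (1805 to 1871). Without the 10% of nuclei with the highest doublet scores, the OPC-like level was 4746 CPM, the immature level 1377 CPM and the mature level 232 CPM. Astrocytes and telencephalic excitatory neurons then held 183 CPM each, and choroid plexus and fibroblasts, at 159 and 171 CPM against 312 and 273 CPM with all nuclei, took the lowest places. After each nucleus was thinned to 2000 UMIs, at least 1 Lhfpl3 UMI was found in 97.6% of 3502 OPC-like nuclei (95% exact binomial interval 97.1 to 98.1), 69.5% of 1812 immature nuclei (67.4 to 71.7) and 26.8% of 2310 mature nuclei (25.04 to 28.7). The share in telencephalic excitatory neurons was 25.3% (24.6 to 26.0), and in fibroblasts, a class outside the nervous lineage, 23.8% (21.6 to 26.0). The share of mature nuclei was thus close to that of classes outside the lineage, and the part of free RNA in it was not tested. Unthinned, the shares were 98.3%, 80.8%, 46.4% and 58.5% in OPC-like, immature, mature and excitatory nuclei.

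Outside the oligodendrocyte lineage, Lhfpl3 was also high in thalamic neurons and in unnamed clusters. The unnamed cluster 3, whose leading genes included Ebf2, Ebf3 and Baiap3, held 926 CPM (917 to 935) in 5276 nuclei, with 863 in the lowest library and 1001 in the highest. The unnamed cluster 35, led by Pou4f1 and Chat among others, held 997 CPM (926 to 1072) in 104 nuclei. Both levels were near the 912 CPM of thalamic neurons. Astrocyte cluster 23 and microglia cluster 14 held 624 and 622 CPM, against 136 and 166 CPM in the main astrocyte and microglia clusters 1 and 10. Cluster 14 scored 3.76 on the microglia and 3.73 on the macrophage markers, and the macrophage gene Mrc1 was among its leading genes. In clusters 23 and 14, 83.5% and 44.3% of nuclei had the highest doublet scores, against 6.29% and 4.70% in clusters 1 and 10. The part of doublets in those levels was not tested.

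Lhfpl4 was sparse and spread over all classes. With all nuclei joined it was counted at 38.5 CPM (37.9 to 39.0), and the libraries ranged from 31.0 to 44.0 CPM with a median of 38.7. Striatal projection neurons had the highest level, 55.6 CPM (43.6 to 62.9 over the libraries, median 57.2). Ependymal cells at 52.0 CPM (44.5 to 62.9) and neuroblasts at 50.7 CPM (47.4 to 65.2) did not differ from them beyond the spread of the libraries, and without the highest doublet scores ependymal cells came first, at 57.4 against 56.2 CPM. Choroid plexus was lowest at 18.8 CPM (10.4 to 24.98), followed by fibroblasts at 24.8 CPM and mature oligodendrocytes at 28.6 CPM. Thinned to 2000 UMIs, 10.6% of striatal nuclei (9.84 to 11.47) and 2.86% of choroid plexus nuclei (1.44 to 5.06) held a UMI, and unthinned 31.3% and 10.4%. The 6 excitatory neuron markers, summed, were also found in glial classes, at 337.9 CPM in OPC-like nuclei and 459.5 CPM in microglia against 948.8 CPM in telencephalic excitatory neurons, none of them at 0, and the part of carried-over neuronal RNA in the Lhfpl4 levels was not tested. Telencephalic excitatory neurons were not above OPC-like nuclei, with 36.1 CPM (28.2 to 43.3 over the libraries) against 44.4 CPM (26.8 to 53.7).

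Cpeb1 was highest in thalamic neurons, at 111 CPM (95.7 to 121 over the libraries, median 109.5), and lowest in striatal projection neurons, at 21.6 CPM (17.4 to 28.8, median 21.5). The libraries of these classes did not overlap. Interneurons at 84.6 CPM (80.5 to 93.1) were below thalamic and above telencephalic excitatory neurons at 60.8 CPM (56.7 to 66.4), again without overlap. Astrocytes, at 61.4 CPM (50.8 to 75.2), did not differ from excitatory neurons beyond the spread. Thinned to 2000 UMIs, 19.8% of thalamic (17.7 to 22.0) and 4.01% of striatal nuclei (3.52 to 4.56) held a Cpeb1 UMI, and unthinned 61.3% and 12.9%. Endothelial nuclei, taken as a non-neural comparison, held one in 5.93% (5.10 to 6.85) after thinning, with a median of 3297 UMIs per nucleus against 6496 in striatal nuclei. The striatal share was below it and is not read as expression, and whether the endothelial UMIs are free RNA was not tested.

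Cpeb2 was highest outside neurons. Choroid plexus held 219 CPM (184 to 339.5 over the libraries, median 211), fibroblasts 194 CPM (175 to 228, median 195) and mature oligodendrocytes 171 CPM (139 to 183, median 169.5). The lowest joined levels were those of neuroblasts, at 60.2 CPM (48.8 to 85.1, median 70.6), striatal projection neurons, at 60.6 CPM (54.7 to 65.8), and pericytes, at 64.6 CPM (21.95 to 88.8), and these classes overlapped over the libraries. Library 3 gave 216 of the 502 neuroblast UMIs, at 48.8 CPM, and the other libraries lay above 65 CPM. Telencephalic excitatory neurons held 74.9 CPM (65.8 to 79.1), near the 78.5 CPM of endothelial nuclei, and the part of free RNA in both was not tested. Every choroid plexus, fibroblast and mature library was above every telencephalic excitatory library.

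Cpeb3 was highest in interneurons, at 447 CPM (412 to 466 over the libraries, median 448), above thalamic neurons at 386 CPM (354 to 423) and telencephalic excitatory neurons at 351 CPM (317 to 391). The lowest interneuron library was above every excitatory library and within the range of thalamic neurons. Ependymal nuclei were lowest at 186 CPM (126 to 251), followed by endothelial nuclei at 199 CPM (113 to 246).

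The class levels of Cpeb4 ran from 138 CPM in interneurons (117 to 152 over the libraries) to 248 CPM in astrocytes (234 to 287, median 244), with choroid plexus at 247 CPM (205 to 340.3). Astrocyte and interneuron libraries did not overlap. Endothelial nuclei held 163 CPM (123 to 192.5), above interneurons, and the part of free RNA in these levels was not tested. Neighbours in the order overlapped.

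**Figure D2:**
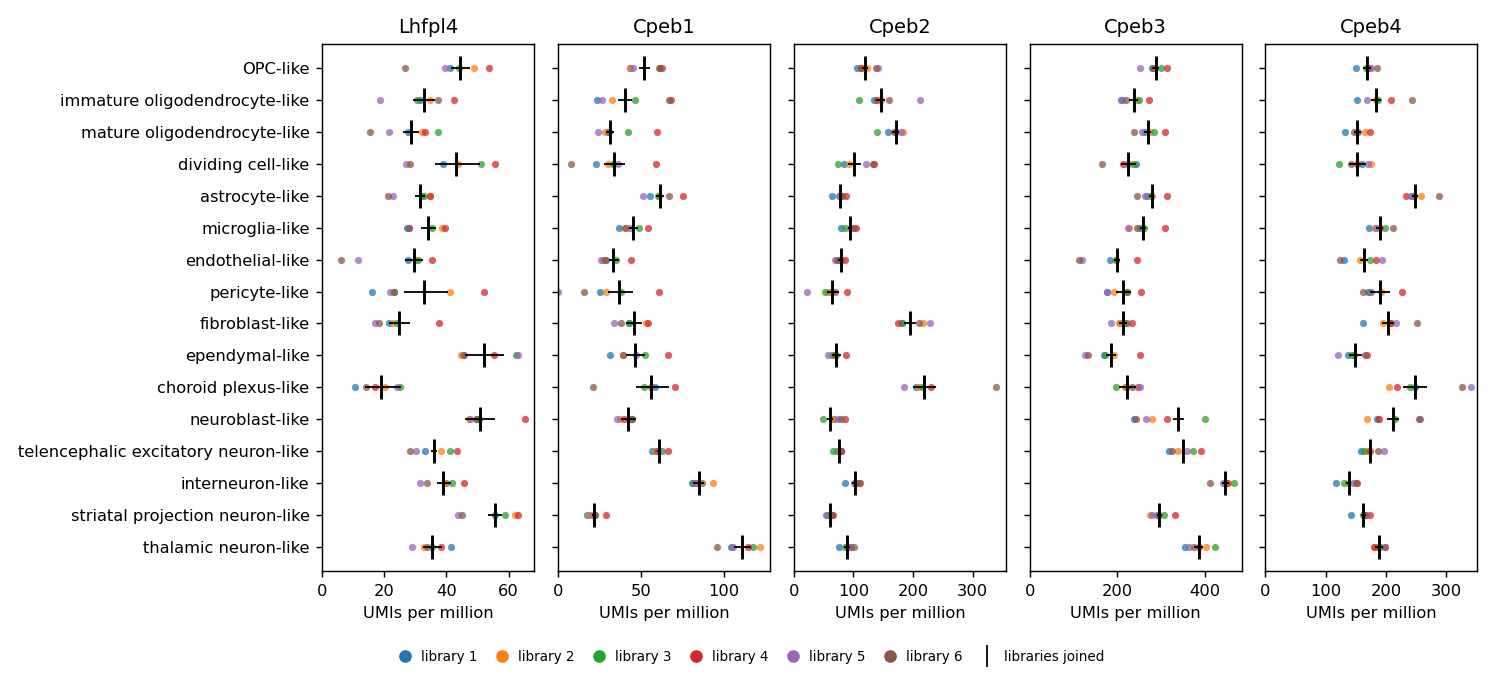
CPM (horizontal, from 0) of Lhfpl4 and the Cpeb genes in 16 named classes. Points are the 6 libraries, the black mark is the level with libraries joined and its bar the 95% Poisson interval. Cpeb1 runs from 21.6 CPM in striatal projection to 111 CPM in thalamic neurons, and Cpeb2 is highest in choroid plexus at 219 CPM.

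The stages of the oligodendrocyte lineage were then compared as log2 ratios of CPM, with 95% exact intervals from the binomial split of both counts. Lhfpl3 was lower at each later stage. Against OPC-like nuclei its log2 ratio was -1.81 (-1.84 to -1.78) in the immature and -3.60 (-3.64 to -3.56) in the mature class, and mature over immature gave -1.80 (-1.84 to -1.75), each below 0 in 6 of 6 libraries. The libraries ranged from -2.28 to -1.45, from -4.60 to -2.86 and from -2.95 to -1.41 in these comparisons, far wider than the counting intervals. Mature nuclei numbered 98 to 808 per library, and libraries 1, 2 and 5 gave 2008, 2210 and 764 of their 5980 Lhfpl3 UMIs. After thinning, 26.8% of mature nuclei held an Lhfpl3 UMI, near the 25.3% of endothelial nuclei. The ratios with the mature class are thus differences of counted UMIs and no measured folds of expression. Without the 10% of nuclei with the highest doublet scores the ratios of the 3 comparisons were -1.79, -4.35 and -2.57. Lhfpl3 was the 1 member of 6 past 2-fold in each comparison. Among all genes with at least 100 UMIs over both classes, 3.09% were 2-fold or more lower and 4.03% higher in the first of these comparisons. For mature over OPC-like nuclei 7.17% were lower and 7.99% higher, and for mature over immature nuclei 4.25% and 5.86%. The median log2 ratio of all genes was -0.0096, -0.15 and -0.13 in these comparisons. Dividing over OPC-like nuclei gave Lhfpl3 a log2 ratio of -1.05 (-1.08 to -1.01) again as the 1 member past 2-fold, where 1.14% of genes were 2-fold lower and 6.08% higher. In the dividing class the summed astrocyte markers stood at 957.3 CPM against 515 CPM in OPC-like nuclei and the microglia markers at 262.2 against 81.04 CPM, and after thinning 63.4% of its nuclei (59.1 to 67.6) held an Lhfpl3 UMI. The part of other dividing cell types in this ratio was not tested.

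Among the Cpeb genes, Cpeb2 alone was at a higher level in mature oligodendrocytes than in OPCs, by a log2 ratio of 0.52 (0.44 to 0.60) and values of 0.29 to 0.60 over the libraries, above 0 in 6 of 6. Cpeb1 stood at -0.73 (-0.88 to -0.58), with library values from -1.02 to -0.037, and at -1.05 (-1.27 to -0.84), past 2-fold, without the nuclei of highest doublet score. Cpeb3 and Cpeb4 stood at -0.09 and -0.14, against a median of -0.15 over all genes, and under TMM scaling, which takes most genes as not differing, at 0.029 and -0.020. For immature over OPC-like nuclei Cpeb1 stood at -0.37 (-0.54 to -0.19), below 0 in 4 of 6 libraries, Cpeb2 at 0.29 (0.19 to 0.38), Cpeb3 at -0.28 (-0.35 to -0.21) and Cpeb4 at 0.12 (0.04 to 0.21). Without OPC-like cluster 30, chosen for removal after the data were seen, the immature ratios of Cpeb2 and Cpeb4 were 0.079 (-0.024 to 0.18) and 0.075 (-0.017 to 0.17), no longer apart from 0, and the mature ratio of Cpeb3 turned to 0.083 (0.017 to 0.15), its sign under TMM scaling too. The mature ratio of Cpeb2 was smaller there but stayed above 0. Cluster 6 by itself held 138 CPM of Cpeb2, against 119 CPM in the whole OPC-like class and 171 CPM in mature nuclei. For Lhfpl4 the ratio of mature over OPC-like nuclei was -0.63 (-0.80 to -0.47), with library values of -0.87 to -0.24, and that of immature over OPC-like nuclei -0.44 (-0.63 to -0.26), below 0 in 5 of 6 libraries. Between mature and immature nuclei its interval, -0.40 to 0.02, held 0. The summed excitatory neuron markers were also lower at later stages, at 337.9, 313 and 251.6 CPM in OPC-like, immature and mature nuclei, and their part in the Lhfpl4 and Cpeb ratios was not tested. Mature nuclei were also at the endothelial level of Lhfpl4 (28.6 against 29.4 CPM) and of Cpeb1 (31.2 against 33.3 CPM). Immature nuclei were near it for Lhfpl4, at 32.6 CPM and, after thinning, a share of 5.30% against 5.14%. These levels are not read as expression or as its absence, and the part of free RNA in them was not tested. The study itself assayed RNA of both genes in purified cells of this lineage. The ratios that use these levels are differences of counted UMIs.

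**Figure D3:**
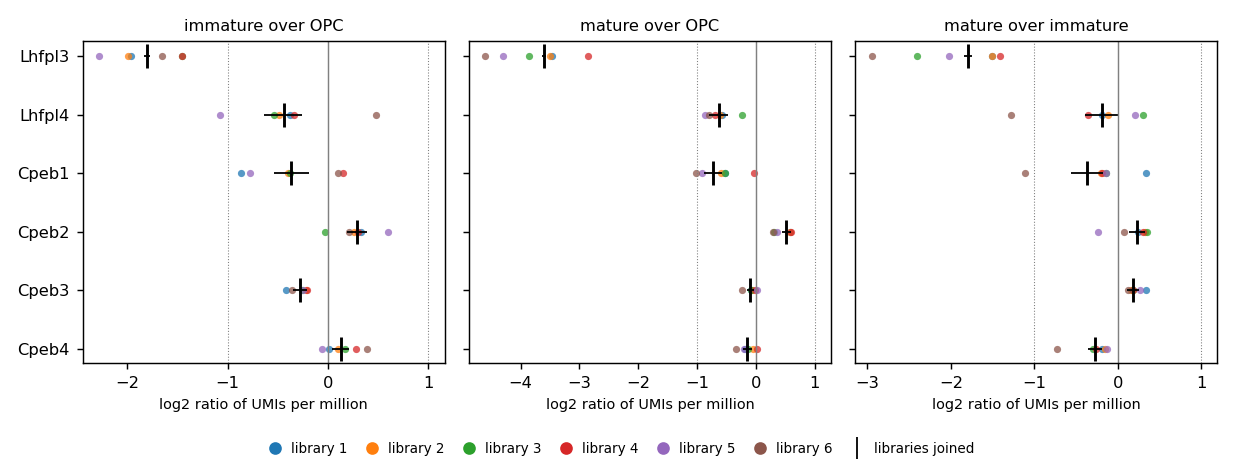
Log2 ratios of CPM (horizontal) between stages of the oligodendrocyte lineage for the 6 genes. Points are the 6 libraries, the black mark is the ratio with libraries joined, its bar the 95% interval, and dotted lines mark 2-fold. Lhfpl3 lies past 2-fold lower in every library and panel, and the other genes lie closer to 0. In mature over OPC-like nuclei Lhfpl4 and Cpeb1 are below 0 and Cpeb2 above 0 in 6 of 6 libraries.

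Between neuronal classes, Cpeb1 and Lhfpl3 differed most. Cpeb1 was lower in striatal projection than in telencephalic excitatory neurons, with a log2 ratio of -1.495 (-1.59 to -1.40), with library values of -1.71 to -1.21. Since the striatal level is not read as expression, this ratio is a difference of counted UMIs and no measured fold of expression. It was the 1 member past 2-fold lower, where 7.95% of all genes were as low and 5.57% as much higher. Lhfpl3 stood at 0.93 (0.90 to 0.95) and Lhfpl4 at 0.62 (0.56 to 0.69) in the same comparison, each above 0 in 6 of 6 libraries. In thalamic over excitatory neurons Lhfpl3 was higher by 2.28 (2.25 to 2.31), with library values of 2.01 to 2.47, and was the 1 member past 2-fold, where 7.87% of genes were 2-fold higher and 7.97% lower. Cpeb1 followed at 0.87 (0.79 to 0.94). The interval for Lhfpl4, -0.15 to 0.10, held 0, and Cpeb3 and Cpeb4, at 0.14 and 0.12, lay near the median of all genes of 0.08 and came to 0.0088 and -0.012 under TMM scaling. Telencephalic excitatory neurons held less Lhfpl3 than endothelial nuclei, 188 against 302 CPM, and the same share of nuclei after thinning, 25.3%. Without the nuclei of highest doublet score the levels were 183 and 206 CPM, and in libraries 5 and 6 endothelial nuclei were the lower class. Upper-layer neurons, an excitatory subtype, held an Lhfpl3 UMI in 32.0% of nuclei after thinning (30.6 to 33.4). The endothelial level is thus no fixed floor. The excitatory Lhfpl3 level is not read as expression or as its absence, and the part of free RNA in it was not tested. The Lhfpl3 ratios over these neurons, here and below, are differences of counted UMIs.

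Interneurons held more Lhfpl3, Cpeb1, Cpeb2 and Cpeb3 than excitatory neurons. The log2 ratios were 0.72 (0.69 to 0.75), 0.48 (0.41 to 0.54), 0.44 (0.38 to 0.50) and 0.35 (0.32 to 0.38), each above 0 in 6 of 6 libraries. Cpeb4 stood at -0.33 (-0.38 to -0.29), below 0 in 6 of 6 libraries. The interneuron level of Cpeb4 was below that of endothelial nuclei (138 against 163 CPM), so this ratio is a difference of counted UMIs. The median of all genes was 0.11, and 0 members were past 2-fold, against 6.58% of genes higher and 5.26% lower. Lhfpl4 lay at this median, at 0.11 (0.02 to 0.20), and turned to -0.033 under TMM scaling. In astrocytes over excitatory neurons 0 members were past 2-fold, against 24.3% of genes higher and 8.34% lower, and the median of all genes was 0.38. Cpeb4 stood at 0.52 (0.48 to 0.55), above 0 in 6 of 6 libraries, and at 0.077 (0.045 to 0.11) under TMM scaling. Lhfpl3 stood at 0.61 (0.58 to 0.64), but at 0.0036 (-0.038 to 0.045) without the nuclei of highest doublet score and at -0.11 with finer clusters. Cpeb1 and Cpeb2, at 0.01 and 0.05 with intervals that held 0, were -0.42 and -0.39 under TMM scaling. Cpeb3 stood at -0.33 (-0.36 to -0.31) and Lhfpl4 at -0.20 (-0.28 to -0.11), each below 0 in 6 of 6 libraries.

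**Figure D4:**
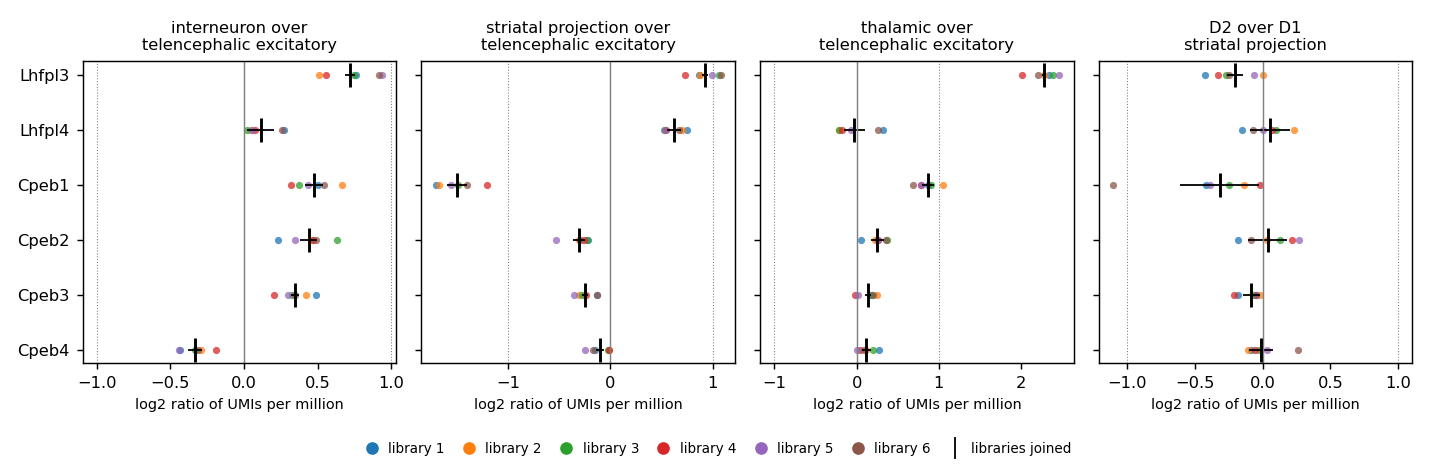
Log2 ratios of CPM (horizontal) between neuronal classes for the 6 genes. Points are the 6 libraries, the black mark is the ratio with libraries joined, its bar the 95% interval, and dotted lines mark 2-fold. Cpeb1 lies at -1.71 to -1.21 in striatal and Lhfpl3 at 2.01 to 2.47 in thalamic over telencephalic excitatory neurons.

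Neuronal subtypes, named from smaller marker lists, split these averages. Cpeb1 was counted at 115 CPM (106 to 127 over the libraries, median 116) in layer 5 Fezf2 neurons, which project below the cortex, against 61.0 CPM (54.4 to 71.5) in layer 4 Rorb, 58.9 CPM (46.4 to 67.5) in upper-layer and 49.2 CPM (43.6 to 55.8) in layer 6 corticothalamic neurons. The layer 5 libraries were all above those of the other excitatory subtypes, and dentate granule neurons were lowest at 37.5 CPM (32.9 to 43.0). Cpeb3 stood at 620 CPM (543 to 696) in 192 Sst interneurons and 548 CPM (507 to 577) in Lhx6 interneurons without Sst, against 314 CPM (299.6 to 331) in Adarb2 interneurons. The Adarb2 level was below the 351 CPM of all telencephalic excitatory neurons, so the higher Cpeb3 of the interneuron class did not hold for this subtype. Lhfpl3 separated the same subtypes in another order, with 587 CPM (463 to 698) in Sst, 326 CPM (291 to 387) in Adarb2 and 204 CPM (163 to 230) in Lhx6 interneurons without Sst. CA pyramidal neurons of the hippocampus held the least Lhfpl3, 78.7 CPM (36.1 to 115), and also little Cpeb3, 256 CPM (205 to 286). For Lhfpl3 the Adarb2 level was near the 302 CPM of endothelial nuclei, and the Lhx6 and CA pyramidal levels were below it. These are differences of counted UMIs, and the part of free RNA in them was not tested.

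**Figure D5:**
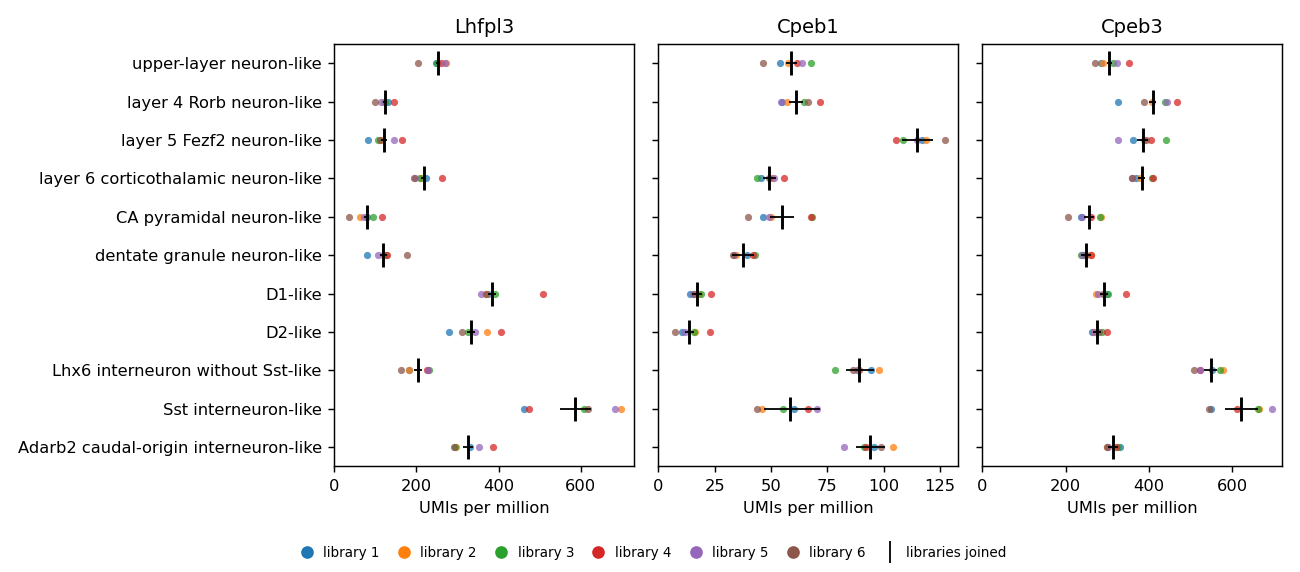
CPM (horizontal, from 0) of Lhfpl3, Cpeb1 and Cpeb3 in 11 neuronal subtypes. Points are the 6 libraries, the black mark is the level with libraries joined and its bar the 95% Poisson interval. Layer 5 Fezf2 neurons stand highest for Cpeb1 at 115 CPM, and Sst interneurons for Cpeb3 at 620 CPM and Lhfpl3 at 587 CPM.

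D1 and D2 striatal projection neurons, which carry different dopamine receptors, differed little. For D2 over D1 the log2 ratios were -0.20 (-0.26 to -0.14) for Lhfpl3, 0.05 (-0.09 to 0.20) for Lhfpl4, -0.31 (-0.61 to -0.02) for Cpeb1, 0.04 (-0.11 to 0.18) for Cpeb2, -0.08 (-0.15 to -0.02) for Cpeb3 and -0.01 (-0.10 to 0.08) for Cpeb4. Here 0 members were past 2-fold, against 0.622% of genes in each direction. The Cpeb1 ratio rested on 162 and 255 UMIs, and it turned to 0.26 (0.034 to 0.49) when a smaller difference of marker scores was enough to name a striatal subcluster D1 or D2, so no direction is given. The interval of Cpeb3 came to hold 0 with that smaller difference (-0.026), with coarser clusters (-0.062), with the members among the clustering genes (-0.062) and without library 1 (-0.059), so none is given for it either. The smaller margin is that of the other neuronal subtypes, and the larger one was chosen after the subclusters had been seen.

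Levels of different genes were set against each other per kilobase of gene length, since nuclear RNA holds introns. Per kb of genomic span, Lhfpl3 had 7.84 CPM among OPC-like nuclei, the highest of the 6 genes there, and 0.354 CPM in telencephalic excitatory neurons, the lowest. Cpeb4 stood at 2.65 and 2.74 CPM per kb and Cpeb1 at 0.477 and 0.560 CPM per kb in the same classes. These places depend on the length used. Over all nuclei Lhfpl3 stood at 0.995 CPM per kb of span, against 1.67 for Cpeb3 and 2.79 for Cpeb4. Per kb of exon Lhfpl3 stood at 164 CPM, the highest of the 6 genes, against 42.3 and 27.8 CPM for Cpeb3 and Cpeb4. Whether reads in introns were counted was not tested. As a share of all Cpeb UMIs of a class, not corrected for length and so read for 1 gene between classes, Cpeb1 made up 15.3% in layer 5 Fezf2 neurons, 14.3% in thalamic neurons and 3.99% in striatal projection neurons, whereas Cpeb2 made up 27.4% in mature oligodendrocytes and 11.4% in telencephalic excitatory neurons.

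Of the relatives of Lhfpl3 and Lhfpl4, 4 were in the table (Lhfpl6 under its older symbol Lhfp). Immature over OPC-like nuclei gave Lhfpl2 a log2 ratio of 1.11 (0.98 to 1.24), and mature over immature gave -2.56 (-2.75 to -2.37), so its highest stage was the immature one, where that of Lhfpl3 was the OPC. Lhfp was counted at 684 CPM in pericytes, 414 CPM in astrocytes and 65.0 CPM in OPC-like nuclei. Lhfpl5, which belongs to the mechanotransduction complex of hair cells, and Lhfpl1 reached at most 2.56 and 0.816 CPM in the 16 classes.

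The 10 genes listed beside LHFPL4, for inhibitory synapses or for GABA-A receptors more broadly, include GABA-A receptor subunits, Nlgn2, the scaffold gene Gphn and Clptm1. All 10 were below 0 in mature over OPC-like nuclei, where 2 of 10 were past 2-fold lower (Nlgn2 at -1.07 and Shisa7 at -1.09), and their median was -0.64 against -0.15 for all genes, of which 7.17% were 2-fold lower. The summed excitatory neuron markers given above moved the same way, with libraries at 240.9 to 404.3 CPM among OPC-like and 229.4 to 307.5 CPM among mature nuclei, and their part in these ratios was not tested. In striatal over excitatory neurons, where Lhfpl4 was higher, 0 of 10 were past 2-fold, against 5.57% of genes higher and 7.95% lower, and the median was 0.18 against 0.06. Shisa7, at 0.81, had the highest ratio of the list.

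Of 22 symbols listed for factors of polyadenylation and mRNA repression, 21 were in the table of counts. The other, Papd4, is an older symbol of Tent2, which was counted. In immature and mature over OPC-like nuclei 0 of 20 tested were past 2-fold, with medians of 0.19 and 0.03 against -0.0096 and -0.15 for all genes. Of all genes, 4.03% were 2-fold higher and 3.09% lower in the first comparison, and 7.99% and 7.17% in the second. Aurka and Tacc3, which act in mitosis too, had log2 ratios of 5.66 and 3.94 for dividing over OPC-like nuclei and were the 2 of 21 past 2-fold there, where 6.08% of all genes were 2-fold higher. In astrocytes over excitatory neurons 2 of 21 were past 2-fold higher, where 24.3% of all genes were, and the median was 0.45 against 0.38. They were Tob1 and Tob2, which recruit deadenylases, at 1.22 and 2.05. Of 7 transcripts known to be bound by CPEB proteins in neurons, Plat, which encodes a secreted protease, stood at 1.75 for mature over OPC-like nuclei and Gria2, a glutamate receptor subunit, at -1.09, with a median of -0.63 for the list. In thalamic over excitatory neurons 4 of 7 were past 2-fold lower, among them Gria1 at -1.42 and Camk2a at -1.08, and the median was -1.08 against 0.08, where 7.97% of all genes were 2-fold lower. Thalamic Gria1 and mature Gria2 were below endothelial nuclei, at 456.5 against 607.9 CPM and 667.9 against 796.5 CPM. Thalamic Camk2a was near them, at 402.7 against 372.5 CPM. The part of free RNA in these ratios was not tested. The lists were not tested as sets.

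Genes with the most similar pattern over 36 clusters were sought among 14947 genes by Pearson's r of log2(CPM + 10). Clusters share libraries and depth, so these values are descriptions. For Lhfpl3 they were Gm42948 (r = 0.94), which lies antisense within Lhfpl3 and may share its reads, Myt1 (0.84), a transcription factor of the oligodendrocyte lineage, and Shc4 (0.83). Lhfpl4 was nearest to Gdap1 (0.79), Akap6 (0.79) and the sodium channel gene Scn3a (0.77). Cpeb1 was nearest to the adenylyl cyclase gene Adcy8 (0.77), Gm21798 (0.75) and 2210408F21Rik (0.75), and Cpeb3 to Dock3 (0.87), Pi4ka (0.85) and 4930415C11Rik (0.85). Cpeb2 reached 0.72 with Naaladl2, 0.68 with Slc22a21 and 0.68 with Gm19325, and Cpeb4 0.70 with Gpt, 0.67 with Gadd45g and 0.67 with Metrnl. Among the members themselves the highest r was 0.55, between Cpeb1 and Cpeb3, and the lowest -0.39, between Lhfpl4 and Cpeb2. Lhfpl3 and Lhfpl4 reached 0.33.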

How the data were processed

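Nuclei of 3 WT and 3 Npc1-/- forebrains were profiled with 10x Genomics Chromium 3′ chemistry. The deposited matrix holds raw UMI counts per gene and barcode, written by the authors with Cell Ranger (6.0.0 in its header, 2.1.1 in the submitters' processing notes, build mm10). The study describes alignment with STARsolo and later filters, and no source used here says how the matrix relates to them. The 6 genes and the lists were chosen with earlier results of these data known.

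Barcodes at or above 10% mitochondrial UMIs were left out (11). Each nucleus was brought to 10000 counts before the logarithm was taken. From the 3000 most variable genes, without the 6 genes, 30 principal components and 20 neighbours gave Leiden clusters at resolution 1.0 (scanpy 1.11.5, leidenalg 0.10.2, Python 3.11.15). Clusters were named from 17 marker lists and subtypes from 11. The limits for naming were chosen with the clusters in view, including the margin of 1 between D1 and D2 scores. Doublets were left in, because the caller marked under 0.5% of nuclei in some libraries, and removing the highest scores was an alternative.

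Class sums were scaled to CPM, and genes with under 100 UMIs over both classes were not counted past 2-fold. No source used here ties a library to a mouse, so libraries were not taken as replicate mice. The design set no test, and each ratio was also computed within each library, which holds both classes. The ratio code was tested on simulated data. Genes named were the 6 genes, the fixed lists with up to 6 examples, and the 3 most similar genes each. Striatal, thalamic, dividing and astrocyte comparisons were added after the class levels were seen, and so were the marker values and unnamed clusters named.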

Additional observations from a re-analysis of the deposited data

Results flagged for a closer look

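Of 102 sets of 6 library values, 6 had 1 library farther from the others than Dixon's 95% limit for 6 values, and chance gives about 1 in 20. Library 6 stood apart 4 times. Between mature and immature nuclei it had a log2 ratio of -1.11 for Cpeb1, with the next library at -0.19, and -0.73 for Cpeb4, with the next at -0.30. Its ratio of D2 over D1 neurons was -1.10 for Cpeb1, with the next at -0.42, and that of dividing over OPC-like nuclei -2.95 for Cpeb1, on 2 UMIs in dividing nuclei, with the next at -0.92. Library 5 had a striatal over excitatory ratio of -0.53 for Cpeb2, with the next at -0.31. Library 1 had 142 CPM of Cpeb4 in striatal projection neurons, with the next at 161 CPM. Library 6 was the smallest, with 8217 barcodes, and the part of depth in these values was not tested.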

How the results depend on the processing

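Of 780 values of 54 log2 ratios under the alternatives, 757 kept their sign. Given below are values that turned sign where either interval lay apart from 0, values whose interval came to hold or leave 0 and, with nuclei weighted equally, those outside the reported interval. Also given are the mature Lhfpl3 ratios without the highest doublet scores, which moved in size alone. Other shifts in size alone are not listed. The cause of the changes was not tested.

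TMM scaling gave 0.029 for Cpeb3 and -0.020 for Cpeb4 (mature over OPC), -0.033 for Lhfpl4 (interneuron over excitatory), -0.15 for Lhfpl4, 0.0088 for Cpeb3 and -0.012 for Cpeb4 (thalamic over excitatory), and -0.42 for Cpeb1 and -0.39 for Cpeb2 (astrocyte over excitatory). Coarser clusters (resolution 0.5) gave -0.062 for Cpeb3 (D2 over D1) and 0.079 for Cpeb1 (astrocyte over excitatory), and finer ones (2) gave 0.061 for Cpeb2 (mature over immature) and -0.11 for Lhfpl3 and 0.099 for Cpeb1 (astrocyte over excitatory). With the members among the clustering genes Cpeb3 was -0.062 (D2 over D1). Without the highest doublet scores Lhfpl3 was -4.35 (mature over OPC) and -2.57 (mature over immature), Lhfpl4 was -0.30 (mature over immature) and Lhfpl3 was 0.0036 (astrocyte over excitatory).

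Chosen after seeing the data, leaving out OPC cluster 30 gave 0.079 for Cpeb2 and 0.075 for Cpeb4 (immature over OPC) and 0.083 for Cpeb3 (mature over OPC), and the margin of 0.5 gave 0.26 for Cpeb1 and -0.026 for Cpeb3 (D2 over D1). Leaving out barcodes found in more than 1 library changed no sign or place.

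With nuclei weighted equally Lhfpl3 came to -1.91 (immature over OPC), -4.21 (mature over OPC), -2.31 (mature over immature), 0.69 (interneuron), -0.27 (D2 over D1), 0.99 (striatal), -1.11 (dividing) and 0.24 (astrocyte). Cpeb1 came to -0.99 (mature over OPC), -0.68 (mature over immature) and 0.55 (interneuron), Cpeb2 to 0.17 (immature over OPC) and -0.42 (dividing), Cpeb3 to -0.28 (striatal), -0.50 (dividing) and -0.43 (astrocyte), Lhfpl4 to -0.30 and Cpeb4 to 0.57 (astrocyte).

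With each library left out in turn, the interval came to hold or leave 0 for Lhfpl4 at -0.25 to -0.13 (mature over immature, library 3) and 0.084 to 0.14 (interneuron, library 1), Cpeb1 at -0.37 to -0.23 (D2 over D1, libraries 1, 5 and 6), Cpeb3 at -0.10 to -0.059 (D2 over D1, library 1), Cpeb2 at -0.36 to -0.15 (dividing, library 3), Cpeb4 at -0.19 to -0.066 (dividing, libraries 3, 4 and 6) and Cpeb2 at -0.00052 to 0.093 (astrocyte, libraries 1 and 5).

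Unthinned shares of nuclei with a UMI were 98.3%, 80.8%, 46.4% and 58.5% for Lhfpl3 in OPC, immature, mature and excitatory nuclei, 31.3% and 10.4% for Lhfpl4 in striatal and choroid plexus nuclei, and 61.3% and 12.9% for Cpeb1 in thalamic and striatal nuclei. By Spearman's rho, 1 of the 3 most similar genes of Lhfpl3 and 0 of those of Lhfpl4, Cpeb2 and Cpeb4 were the same. Between WT and Npc1-/- no paired analysis was possible because no source used here ties a library to a mouse. Depth limits Lhfpl4 and Cpeb1, whose levels in small classes rest on few UMIs.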
